A study of Homo sapiens with 12 samples.

Results

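Replication-dependent histone genes code for the linker histone H1 and for the core histones H2A, H2B, H3 and H4, which package newly made DNA. The set described here holds the protein-coding genes whose GENCODE 44 symbols begin with H1-, H2AC, H2BC, H3C or H4C followed by a digit. The rule found 74 genes, and 72 of them had counts among the 60617 gene IDs of the files. The IDs of H2AC18 and H2AC19 had no match there. By family, the 72 were 10 H1, 15 H2A, 19 H2B, 13 H3 and 15 H4 genes. Of the 74, 55 lie on chromosome 6 and 13 on chromosome 1.

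The 12Z line is an immortalized line of endometriotic epithelial cells, and its polyadenylated RNA was sequenced here. All groups were transiently transfected with a plasmid using FuGene HD, serum starved and then kept in serum-free medium. Control received pCAG empty vector and vehicle, Insulin received pCAG empty vector and 100 nM insulin, Viperin received pCAG Viperin and vehicle, and Viperin + Insulin received pCAG Viperin and 100 nM insulin. RNA was collected 24 h after insulin or vehicle. Each group had 3 libraries, which the methods describe as independent experiments. The treatment protocol names a pBabe empty vector and the methods name empty vectors of both kinds, whereas the label of each sample gives pCAG. The plasmid was transient, so the share of cells that carried it is not known. Viperin is the product of RSAD2, an antiviral enzyme. RSAD2 lay between 384 and 665 CPM (counts scaled to a common library size of 1e+06) in the 6 libraries with pCAG Viperin and between 2.28 and 5.19 CPM in the 6 libraries with pCAG empty vector.

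Most histone protein is made in S phase, when the genes of these clusters are transcribed together. The mRNAs of replication-dependent histones end in a conserved stem-loop in place of a poly(A) tail, and the stem-loop binding protein SLBP directs their processing, translation and decay. Some of these genes also give longer polyadenylated mRNAs by reading past the stem-loop. The libraries were made with a kit that selects mRNA by its poly(A) tail, so the counts are of polyadenylated or carried-over RNA and do not give the total amount of histone mRNA. In bulk RNA, fewer cells in S phase and less RNA per cell cannot be told apart.

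A stem-loop was found within 150 bases after a stop codon in 69 of the 74 genes. It was 25 to 70 bases after the stop codon, with a median of 38. Among the genes with no match were H1-10, H1-7, H1-8 and H2BC12L. The first 3 of these are replication-independent linker histone genes that the rule takes by their symbols, so the label does not hold for them. There were 10 spellings of the 16 bases. One was shared by 40 genes of the H1, H2A, H2B and H3 families and another by 10 H4 genes. A spelling with A in the loop was shared by 9 genes, including H2BC11, H2BC12 and H2BC5. Of the genes whose level or response stands out below, 7 stem-loops and that of H4C3, for the H4 spelling, are given 5′ to 3′ from hg38 with 5 bases on each side. Capitals mark the stem-loop.
H2AC6: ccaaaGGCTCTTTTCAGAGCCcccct
H2BC11: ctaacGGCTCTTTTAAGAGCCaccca
H2BC12: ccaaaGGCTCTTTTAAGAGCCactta
H2BC5: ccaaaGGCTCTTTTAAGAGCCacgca
H1-2: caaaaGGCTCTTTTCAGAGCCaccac
H1-3: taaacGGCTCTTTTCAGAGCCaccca
H2BC13: ccaaaGGCTCTTTTCAGAGCCactca
H4C3: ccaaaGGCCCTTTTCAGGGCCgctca
The stem-loops lie on chromosome 6 in the 3′ UTRs, at chr6:26124669-26124684 for H2AC6 (plus strand), chr6:27132321-27132336 for H2BC11 (minus), chr6:27146366-27146381 for H2BC12 (minus) and chr6:26158587-26158602 for H2BC5 (plus). Those of H1-2, H1-3, H2BC13 and H4C3 lie at chr6:26055744-26055759 (minus), chr6:26234217-26234232 (minus), chr6:27807484-27807499 (minus) and chr6:26104317-26104332 (plus).

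The annotated gene ran more than 100 bases past its stem-loop in 18 of the 69 genes, in 17 by GENCODE 44 and in 7 by RefSeq. This split was made after the counts were seen. Among genes with extended ends, H2AC6 ran 14432 bases past its stem-loop and H2BC11 ran 6424, both in GENCODE 44. H2BC12 ran 8073 bases past it in RefSeq, and H2BC5 ran 12747 in both. H1-2, H1-3, H2BC13 and H4C3 ended within a few bases of theirs.

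Of the 72 genes, 57 averaged 1 or more counts a library and were tested, among 23041 genes in all. Of the 15 that were not tested, 9 had no count in any library and the other 6 had at most 11 counts over the 12 libraries. The 9 were H1-7, H1-8, H2AC1, H2AC25, H2BC1, H3C4, H3C14, H3C15 and H4C7. A count of 0 allows up to 0.116 CPM in the shallowest library, Control 1, and up to 0.064 CPM in the deepest, Viperin + Insulin 3, from 3 counts and counting error only. It sets no such limit for H3C14 and H3C15, which have no unique 50-base window, or for H3C4, since 96.6% of its exon lies in exons of another gene. The libraries held 25979022 to 46889002 assigned read pairs. Of all read pairs, 9.44% to 13.9% mapped to more than 1 place, most of them in Control 1 at 13.9% and Viperin 3 at 12.1%. Such pairs are not in the counts. Within exons of GENCODE 44, 7 of the 74 genes have no 50-base window that is unique in hg38 and 14 are under 50% unique, while 57 are over 90% unique. H2BC12 was 42.8% unique in its GENCODE 44 exon, H2AC6 99.6%, H2BC11 95.5%, H2BC5 94.2%, H2BC13 88.1% and H1-2 100.0%.

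All 72 genes together held 0.0723% to 0.0870% of the assigned counts. The 7 genes with the most counts held 89.7% of them. Of the counts in stem-loop genes, 72.8% were in the 18 genes with extended ends, and 65.6% were in H2BC12, H1-2 and H2AC6. A mean of at least 100 counts was reached by 9 genes with extended ends and by 3 stem-loop genes without, H1-2, H2AC11 and H2BC9.

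Levels between genes were compared as mean CPM per kb of GENCODE 44 exon. H2BC12 was listed at 253 CPM per kb, H1-2 at 115, H1-10 at 72.2, H2AC6 at 39.1, H2BC5 at 35.8, H2BC11 at 29.3 and H2AC11 at 14.6. H1-2 was the highest member with a stem-loop and no extended end. H3C6, with an extended end, was the highest H3 gene at 7.66 CPM per kb, and H4C3 was the highest H4 gene at 6.72. H2BC9 stood at 6.84 CPM per kb and H3C10 at 5.37. The median over the tested genes was 3.25 CPM per kb for the 14 with extended ends and 0.628 for the 41 without. The authors counted with an annotation in which 70 of the 72 IDs have another version than in GENCODE 44, so the lengths may not be theirs. Taken over the longest annotated gene span, introns included, H2BC12 was at 14.6 CPM per kb, H2AC6 at 4.36, H2BC11 at 4.44 and H2BC5 at 2.33, while H1-2 kept 115. The place of H2BC12 in the order therefore depends on the gene model.

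**Figure D1:**
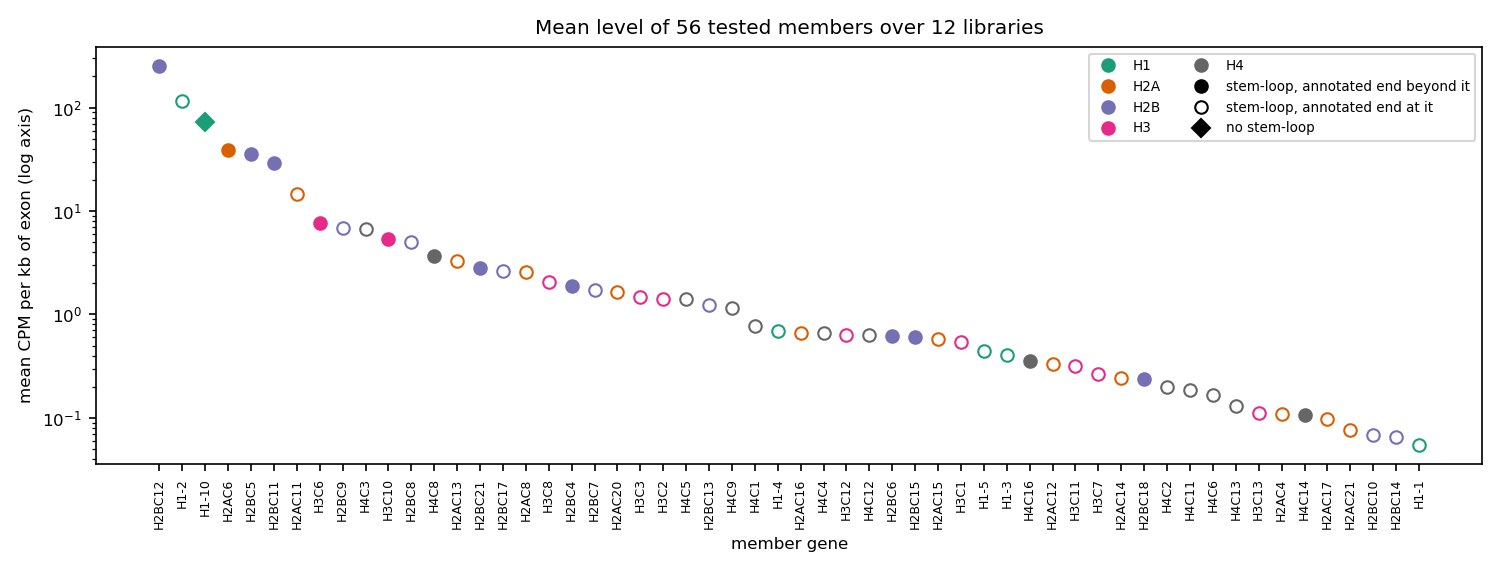
Mean level of 56 tested genes over 12 libraries, in CPM per kb of GENCODE 44 exon on a log axis, coloured by family. Filled circles are stem-loop genes whose GENCODE 44 or RefSeq end lies more than 100 bases beyond the stem-loop, open circles the others and diamonds genes without a stem-loop. H2BC12, H1-2 and H1-10 head the plot at 253, 115 and 72.2.

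Reads from the H2BC12 strand were found far beyond its stem-loop. H4C9, an H4 gene on the plus strand at chr6:27139282-27139678 (hg38), lies inside the RefSeq span of H2BC12 on the minus strand, chr6:27138293-27146858, and 6688 bases beyond the H2BC12 stem-loop. H4C9 had 5 to 28 counts on its own strand in each library. On the other strand its locus had 1570 to 3401 counts, equal in size to 49.0% to 53.9% of the H2BC12 count of the same library. The level on that strand was 57.0 ± 6.86 CPM in Control against 69.2 ± 1.53 in Insulin, and 59.2 ± 4.43 in Viperin against 72.7 ± 0.603 in Viperin + Insulin (SD, n = 3). The lowest Insulin library stood at 67.7 CPM and the highest Control library at 64.8. In the unstranded counts, which leave out pairs that overlap genes on both strands, H2BC12 kept 67.0% to 70.9% of its count. Over the 12 libraries H2BC12 had 36235 unstranded counts against 52940 on its strand. H4C9 had 10731 unstranded counts against 27357 on the H2BC12 strand. How many pairs the H2BC12 and H4C9 counts share was not tested.

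The first question was which of these genes responded to insulin. H2AC6, H2BC11 and H2BC12 were higher with insulin under both plasmids, and H2BC5 was higher in the presence of pCAG Viperin and on average over plasmids. The changes in these 4 were between 1.17-fold and 1.24-fold on average. No H3 or H4 gene was called in any insulin comparison by edgeR's quasi-likelihood test. Of the 57 tested genes, 5 passed an adjusted p of 0.05 for Insulin against Control, where 5.49% of all genes tested were called, 4 of them higher and 1 lower. For Viperin + Insulin against Viperin 5 passed, all higher, against 4.56% of all genes. On average over the plasmids 6 passed, all higher, where 5.76% of all genes were called higher and 11.7% in either direction. At an adjusted p of 0.001 the counts were 1, 1 and 4 in these comparisons, against 1.18%, 1.11% and 3.92% of all genes.

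H2AC6 codes for a replication-type H2A. Control libraries stood at 61.2, 59.8 and 60.9 CPM and Insulin libraries at 68.8, 76.4 and 75.3. With Viperin, the vehicle libraries stood at 59.8, 54.4 and 53.2 CPM and the insulin libraries at 72.7, 68.0 and 72.2. The insulin libraries lay above those without insulin under each plasmid. The log2 fold change was 0.28 ± 0.05 (SE) for Insulin against Control (adjusted p = 1.8e-05, edgeR) and 0.34 ± 0.05 for Viperin + Insulin against Viperin (adjusted p = 9.94e-08, edgeR). On average it was 0.31 ± 0.03, or 1.24-fold (adjusted p = 1.14e-11, edgeR).

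H2BC12 codes for a replication-type H2B and had the most counts of the stem-loop genes. Its level was 122, 103 and 101 CPM in Control and 130, 136 and 136 in Insulin. With Viperin it was 121, 112 and 112 CPM without insulin and 144, 150 and 134 with it. Control 1 was the highest Control library, and no insulin library fell below the libraries of the same plasmid without insulin. The log2 fold change was 0.30 ± 0.06 for Insulin against Control (adjusted p = 0.0042, edgeR), 0.31 ± 0.06 for Viperin + Insulin against Viperin (adjusted p = 0.00377) and 0.31 ± 0.04 on average.

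H2BC11, another H2B gene, stood at 28.6, 26.7 and 26.0 CPM in Control and at 30.9, 33.4 and 33.4 in Insulin. It stood at 29.0, 27.3 and 29.5 CPM in Viperin and at 35.0, 33.5 and 34.2 in Viperin + Insulin. Here too the groups with and without insulin did not overlap. The log2 fold change was 0.27 ± 0.06 (adjusted p = 0.00108, edgeR) with empty vector and 0.26 ± 0.06 (adjusted p = 0.00112, edgeR) with Viperin. H2AC6, H2BC11 and H2BC12 kept their calls in these comparisons with each of the 12 libraries left out in turn.

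H2BC5, also an H2B gene, stood at 31.5, 26.3 and 27.8 CPM in Control against 31.9, 32.7 and 31.9 in Insulin. The Viperin libraries stood at 30.5, 29.2 and 25.2 CPM and those with insulin added at 33.9, 33.1 and 35.7. Control 1 lay just below the Insulin libraries. Its log2 fold change was 0.18 ± 0.06 with empty vector, which did not pass (adjusted p = 0.0775, edgeR), and 0.27 ± 0.06 with Viperin (adjusted p = 0.00207, edgeR). Without Viperin 3, the lowest Viperin library, the latter had an adjusted p of 0.0543. On average over plasmids the log2 fold change was 0.22 ± 0.04 (adjusted p = 9.38e-05, edgeR).

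The linker histone genes H1-10 and H1-2 did not pass for insulin. H1-10 had a log2 fold change of -0.14 ± 0.06 on average (adjusted p = 0.16). H1-2, a stem-loop H1 gene, had 0.04 ± 0.03 (adjusted p = 0.461, edgeR).

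Calls among genes with few counts were lost when certain single libraries were left out. H1-3, a stem-loop H1 gene, had 4, 2 and 7 counts in Control against 14, 25 and 13 in Insulin, and 11, 7 and 10 in Viperin against 10, 10 and 23 in Viperin + Insulin. Its log2 fold change for Insulin against Control was 1.41 ± 0.51 (adjusted p = 0.0278, edgeR). That call was lost without Insulin 2 (adjusted p = 0.242) or Control 2 (0.142), by DESeq2 (0.0703) and by limma-voom (0.0586). Averaged over plasmids it was 0.88 ± 0.34 (adjusted p = 0.028), which was lost without Control 2, Insulin 2, Viperin 2 or Viperin + Insulin 3 (adjusted p from 0.0732 to 0.139) and by DESeq2 (0.0703). H2BC13, an H2B gene, had 19, 23 and 20 counts in Control and 10, 9 and 13 in Insulin. Its log2 fold change was -1.09 ± 0.36 (adjusted p = 0.0272, edgeR), and the call was lost without Control 1, Control 2, Insulin 1 or Insulin 2 (adjusted p from 0.0604 to 0.144), by DESeq2 (0.0607) and in unstranded counts (0.0666).

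**Figure D2:**
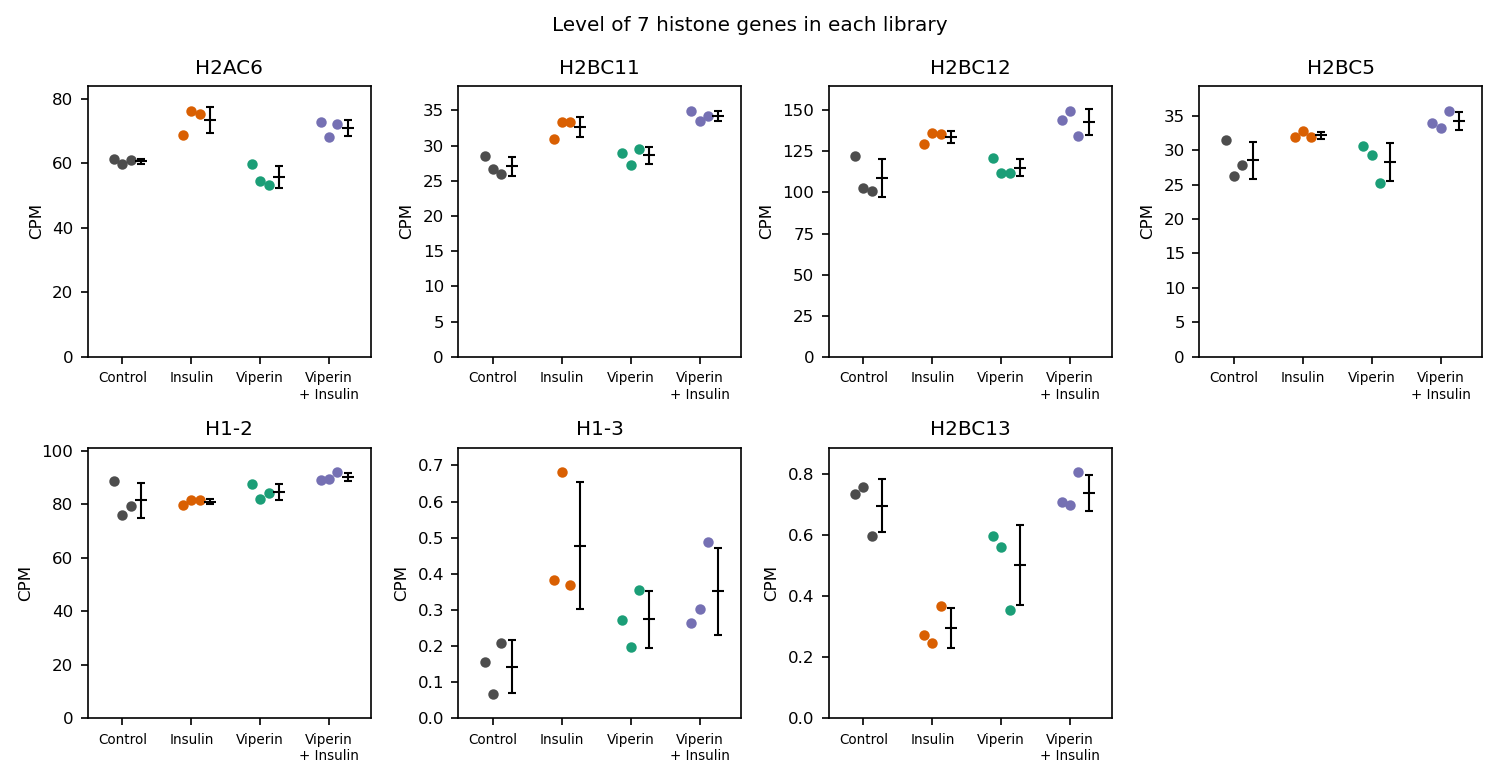
Level of 7 genes in CPM in each of the 12 libraries (points, replicates 1 to 3 from left to right) with the group mean ± SD (bars, n = 3). For H2AC6, H2BC11, H2BC12 and H2BC5 both insulin groups lie above their vehicle groups, H1-2 stays between 75.9 and 92.0 CPM, and H1-3 and H2BC13 are below 1 CPM.

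The number of counts bears on which genes could be called. Among the 7 members with a mean of at least 1000 counts, 5 were called higher for insulin on average, and in that band 27.3% of all 6587 genes tested were called in either direction. Among the 7 with 100 to 1000 counts none was called by edgeR, against 15.2% of all genes. Of the 43 below 100 counts, H1-3 was called. Of all genes, 0.518% of those with 1 to 10 counts and 2.95% of those with 10 to 100 were called. Over all 57 genes the median log2 fold change for insulin on average was 0.10, and 37 of 57 were above 0, where 49.4% of all genes were. At an unadjusted p under 0.05 there were 10, where 22.5% of all genes were. For Insulin against Control, all 3 insulin libraries lay above the 3 others in 10 of the 57 genes and below them in 6, where 9.69% and 10.5% of all genes did so. For Viperin + Insulin against Viperin they lay above in 14 and below in 0, where 11% and 10.1% of all genes did so. All 14 tested genes with extended ends except 1 had a value above 0, with a median of 0.20, and 4 of the 14 were called. The 41 stem-loop genes without extended ends had a median of 0.04, 23 were above 0 and 1 was called. Of all genes tested, 11.7% were called in either direction. A mean of at least 100 counts was reached by 9 genes with extended ends and by 3 without. Extended ends and the number of counts were thus not told apart. The median of all genes was -0.0018.

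**Figure D3:**
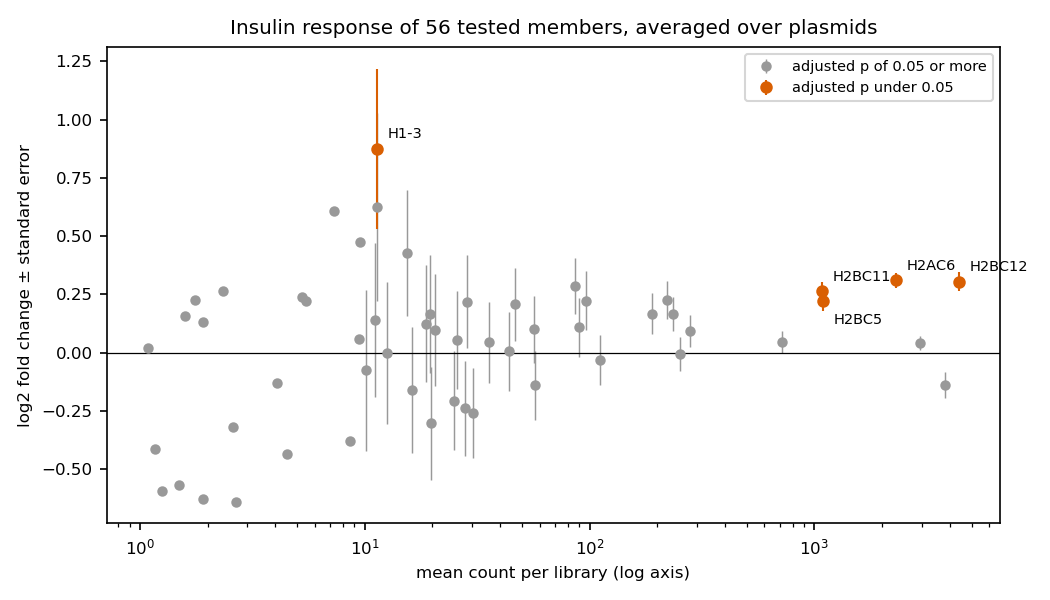
Log2 fold change for insulin, averaged over plasmids, against the mean count per library (log axis) for 56 tested genes. Bars are standard errors, drawn for genes with a mean of at least 10 counts, and coloured points passed an adjusted p of 0.05. The 4 called genes drawn with over 1000 counts lie between 0.22 and 0.31, and H1-3, at 0.88, has a mean of 11.3 counts.

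By family, the stem-loop H1 genes summed to 76.8 to 89.9 CPM in Control and 80.9 to 83.0 in Insulin, which overlap, and to 82.6 to 88.8 in Viperin and 90.6 to 93.9 in Viperin + Insulin, which do not. The stem-loop H2B genes summed to 177 to 206 CPM in Control and 216 to 228 in Insulin, and to 189 to 204 in Viperin and 230 to 244 in Viperin + Insulin. The H2A genes summed to 70.8 to 73.4 CPM in Control against 80.9 to 87.2 in Insulin, and to 65.1 to 72.1 in Viperin against 80.2 to 85.9 in Viperin + Insulin. In both families the insulin groups lay above their vehicle groups. H2BC12 held 59.2% of the H2B counts and H2AC6 held 84.6% of the H2A counts. The H1 sums are mostly H1-2, with 35505 counts over the 12 libraries against at most 234 for any other stem-loop H1 gene. For H3 genes the sums were 27.4 to 32.7 CPM in Control and 28.6 to 31.7 in Insulin, and for H4 genes 12.2 to 13.3 and 13.5 to 15.3. With Viperin the H3 sums were 30.0 to 31.1 CPM without insulin and 32.5 to 33.4 with it, and the H4 sums were 13.1 to 15.0 and 13.3 to 15.1. The H3 sums thus overlapped with empty vector and not with Viperin, and the H4 sums the other way round. Stem-loop genes with extended ends held 0.0258% to 0.0295% of the counts in Control and 0.0315% to 0.0327% in Insulin, and 0.0275% to 0.0294% in Viperin and 0.0332% to 0.0349% in Viperin + Insulin. Of this class, H2BC12, H2AC6, H2BC5 and H2BC11 had the most counts, at 52940, 27662, 13079 and 12970 over the 12 libraries. They are also its 4 genes called for insulin on average. Stem-loop genes without extended ends held 0.0104% to 0.0117% in Control and 0.0109% to 0.0111% in Insulin, which overlap, and 0.0113% to 0.0117% in Viperin and 0.0121% to 0.0124% in Viperin + Insulin, which do not. H1-2 had the most counts of these too, and H2AC11 came next with 3032 over the 12 libraries.

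Many H2A and H2B genes lie head to head, and 12 such pairs had start sites 170 to 251 bases apart. H2BC11 and H2AC11 are one pair. H2AC11 stood at 14.6 CPM per kb against 29.3 for H2BC11 and had a log2 fold change for insulin of -0.01 ± 0.07 on average (adjusted p = 0.984, edgeR), against 0.26 ± 0.04 for H2BC11. H2BC4, the partner of H2AC6, stood at 1.87 CPM per kb and had 0.17 ± 0.09 (adjusted p = 0.235, edgeR). H2AC12, the partner of H2BC12, had a mean of 5.25 counts. In these 3 pairs the called gene was the one with the higher level per kb of exon. Over the longest annotated gene span, introns included, the order of H2BC11 and H2AC11 was reversed, at 4.44 and 14.6 CPM per kb. On that measure H2AC6 at 4.36 stayed above H2BC4 at 0.143, and H2BC12 at 14.6 stayed above H2AC12 at 0.329. The difference within pairs was not tested. H2BC11 and H2BC12 have an extended annotated end and their partners none, whereas H2AC6 and H2BC4 both have one. H2BC21 and H2AC20 form a pair in which neither passed. H2BC21, with an extended end, had 0.23 ± 0.08 (adjusted p = 0.0579, edgeR) and H2AC20 had -0.24 ± 0.20.

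The promoters of the 4 stem-loop genes called above 1000 counts are shown because they moved together. The 200 bases before the RefSeq start site (GRCh38.p14) are printed 5′ to 3′ on the strand of each gene. Capitals mark the octamer ATTTGCAT, CCAAT and TATAAA on either strand.
H2AC6: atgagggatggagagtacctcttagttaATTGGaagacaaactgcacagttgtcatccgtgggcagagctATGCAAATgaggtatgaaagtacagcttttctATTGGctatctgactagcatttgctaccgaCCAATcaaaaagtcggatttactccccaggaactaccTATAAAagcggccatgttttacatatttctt
H2BC11: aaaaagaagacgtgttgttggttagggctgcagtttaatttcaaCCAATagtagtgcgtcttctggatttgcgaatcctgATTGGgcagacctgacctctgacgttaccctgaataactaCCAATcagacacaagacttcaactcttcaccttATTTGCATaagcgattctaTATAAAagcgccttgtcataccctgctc
H2BC12: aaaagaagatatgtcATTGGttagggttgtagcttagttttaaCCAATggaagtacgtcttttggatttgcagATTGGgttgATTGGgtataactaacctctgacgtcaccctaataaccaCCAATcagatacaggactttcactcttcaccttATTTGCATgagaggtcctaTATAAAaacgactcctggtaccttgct
H2BC5: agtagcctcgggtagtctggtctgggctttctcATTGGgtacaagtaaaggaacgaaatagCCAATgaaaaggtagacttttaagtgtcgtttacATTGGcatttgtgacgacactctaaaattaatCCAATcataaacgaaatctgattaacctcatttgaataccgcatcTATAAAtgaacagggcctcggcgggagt
They lie at chr6:26123972-26124171 (plus strand) for H2AC6, chr6:27132796-27132995 (minus) for H2BC11, chr6:27146859-27147058 (minus) for H2BC12 and chr6:26157921-26158120 (plus) for H2BC5. In the wider window of 250 bases before and 50 after the start, searched in the 67 members that the RefSeq table holds, the octamer was in 14 of 18 H2B and 11 of 16 H2A promoters and in 1.8% of all 27305 promoters. It begins 46 bases before the start in H2BC12, 47 in H2BC11 and 130 in H2AC6, there on the other strand, and H2BC5 holds no exact match. CCAAT was in every one of the H2A, H2B and H3 promoters in the table, in 3 of 13 H4 promoters and in 35.7% of all. The RefSeq promoters of H3C4 and H2AC7 are the same sequence (chr6:26199294-26199493 before the start), which is thus counted under both H3 and H2A. TATAAA was in 12 of 16 H2A and 12 of 18 H2B promoters and in 12% of all. The H1 promoters held AAACACA in 7 of 9, against 5.76% of all. The octamer is thus shared with H2A and H2B genes that were not called.

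The next question was whether Viperin changed these genes. For Viperin against Control, edgeR called none of the 57 and 2.29% of all genes. At an unadjusted p under 0.05 there were 3, against 13.5% of all genes. The count was also 0 by DESeq2 and was 1 by limma-voom. H4C13, an H4 gene, had 7, 5 and 2 counts in Control and 0 in each of the 3 Viperin libraries, with 2, 0 and 0 in Insulin and 0, 2 and 0 in Viperin + Insulin (adjusted p = 0.0501 for Viperin against Control, edgeR). It is the call of limma-voom, and it also passed without Control 3 or Viperin + Insulin 3 (adjusted p = 0.0438 and 0.0497, edgeR). H2AC6 had -0.12 ± 0.05 (adjusted p = 0.212, edgeR) and H2BC17, an H2B gene, had 0.54 ± 0.25 (adjusted p = 0.27, edgeR). At an adjusted p of 0.001 no member was called by edgeR for Viperin against Control, for Viperin + Insulin against Insulin or for Viperin on average, against 0.304%, 0.473% and 2.05% of all genes.

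For Viperin + Insulin against Insulin 2 members passed, both higher, against 3.08% of all genes. H1-2 stood at 79.8, 81.4 and 81.4 CPM in Insulin and at 89.1, 89.2 and 92.0 in Viperin + Insulin, with no overlap, and at 88.8, 75.9 and 79.4 in Control and 87.5, 81.8 and 84.2 in Viperin. Its log2 fold change was 0.16 ± 0.04 (adjusted p = 0.0243, edgeR). The call was lost without any 1 of the 6 libraries of these groups (adjusted p from 0.0642 to 0.149) and by DESeq2 (0.0676). Averaged over insulin states it was 0.11 ± 0.03 (adjusted p = 0.0173, edgeR), the only one of the 57 that passed, where 7.96% of all genes did. That call was lost without Control 2 (adjusted p = 0.108), Viperin 1 (0.0802) or Viperin + Insulin 3 (0.061). H2BC13 had 10, 9 and 13 counts in Insulin and 27, 23 and 38 in Viperin + Insulin, a log2 fold change of 1.18 ± 0.35 (adjusted p = 0.0152, edgeR). It was lost without Insulin 2 (adjusted p = 0.12), Viperin + Insulin 1 (0.0505) or Viperin + Insulin 3 (0.0821), and in unstranded counts (0.0583). H2BC15, an H2B gene, had 0.51 ± 0.17 and did not pass (adjusted p = 0.0959, edgeR), though it did without Viperin + Insulin 3 (0.0117) and with only these groups fitted (0.0222). On average over insulin states H2AC6 had -0.08 ± 0.03 (adjusted p = 0.115, edgeR), which passed without Insulin 1 (0.0377) or Viperin 1 (0.0271), and H3C6 had 0.11 ± 0.05 (adjusted p = 0.172, edgeR).

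A difference of the insulin response between the plasmids was not found for any member. By edgeR none of the 57 passed and 0% of all genes did. Taken without adjustment, 8 of the 57 had a p under 0.05, as did 5.63% of all genes. The count was 0 by DESeq2 and by limma-voom as well. For H2AC6 the difference of the log2 responses, Viperin minus empty vector, was 0.07 ± 0.07, for H2BC12 0.00 ± 0.08, for H2BC11 -0.01 ± 0.08 and for H2BC5 0.09 ± 0.09. The smallest p was that of H2BC13, whose counts in Viperin were 24, 20 and 10, with a difference of 1.58 ± 0.48 (adjusted p = 0.29, edgeR). H1-5 had 1.23 ± 0.60 and H2BC15 had 0.57 ± 0.26, neither of which passed. The 2 insulin comparisons share no library, whereas the average holds both.

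**Figure D4:**
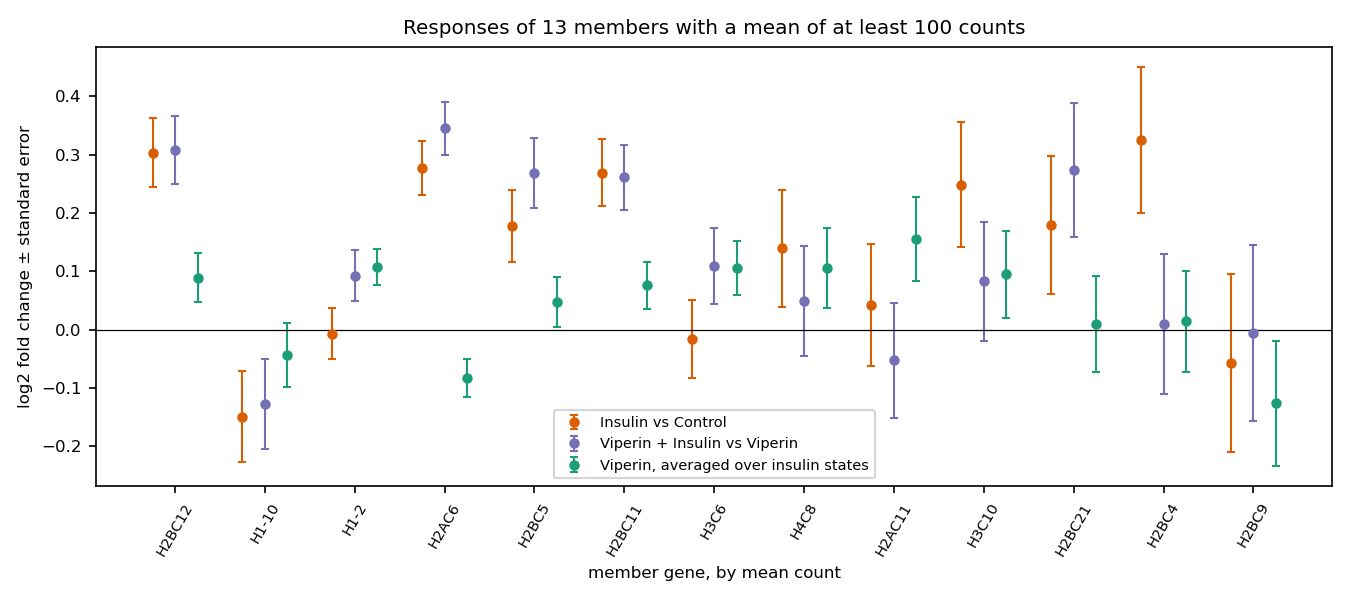
Log2 fold change ± standard error for 13 members with a mean of at least 100 counts, ordered by mean count, for insulin with empty vector, insulin with Viperin, and Viperin averaged over insulin states. H2BC12, H2AC6, H2BC5 and H2BC11 lie between 0.18 and 0.34 in both insulin comparisons, and H1-10 lies at -0.15 and -0.13.

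Genes around the histones were described from lists chosen with earlier results known. Beside the counts called in these lists, 11.7% of all genes were called in either direction for insulin on average and 7.96% for Viperin on average. Of 50 genes of S phase and DNA replication, 2 rose and 11 fell with insulin on average, with a median log2 fold change of -0.028. CCNE2, a cyclin of S phase entry, fell by 0.20 (adjusted p = 6.09e-06, edgeR) and CDT1, a licensing factor of replication origins, fell by 0.20 (adjusted p = 9.46e-06, edgeR). MCM5 and MCM6, subunits of the replicative helicase, fell by 0.15 and 0.12. PCNA, the sliding clamp, had -0.02 ± 0.03 (adjusted p = 0.724). Of 30 genes of G2 and M phase, 3 rose and 2 fell. CDC20, an activator of the anaphase-promoting complex, rose by 0.17 (adjusted p = 8.12e-07) and HMMR, a spindle protein, fell by 0.14 (adjusted p = 5.83e-04). With Viperin, averaged over insulin states, 7 S phase genes rose and 1 fell, among them ORC6, a subunit of the origin recognition complex, at 0.21 ± 0.03 (adjusted p = 1.3e-05) and RPA1 at 0.11 ± 0.02. In G2 and M phase 1 rose and 2 fell, CENPF by 0.13, and CDK1 rose by 0.11.

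Of 34 tested genes for histone mRNA 3′ processing and transcription, 4 rose and 3 fell with insulin on average. SNRPF, an Sm protein, rose by 0.21 (adjusted p = 2.25e-07, edgeR) and LSM10, an Sm-like protein of the U7 particle that cuts histone pre-mRNA, rose by 0.22 (adjusted p = 5.29e-04, edgeR). The 3 that fell, CCNE2, CCNE1 and E2F1, are also on the S phase list. SLBP had -0.07 ± 0.03 (adjusted p = 0.117, edgeR) and NPAT, the activator of histone gene transcription, had -0.07 ± 0.03 (adjusted p = 0.112, edgeR). With Viperin 1 fell, FIP1L1, a factor of polyadenylation, by 0.15 (adjusted p = 0.0185), and none rose. SNRPG had -0.10 ± 0.03 (adjusted p = 0.0501). Among 31 tested chaperones and importers of histones 7 rose and 3 fell with insulin, where 11.7% of all genes were called. ASF1A, a chaperone of H3 and H4, rose by 0.23 (adjusted p = 2.98e-08) and NAP1L1, a chaperone of H2A and H2B, fell by 0.14 (adjusted p = 6.12e-05). With Viperin, where 7.96% of all genes were called, none rose and 6 fell, NPM1 by 0.12 (adjusted p = 1.87e-04) and SUPT6H by 0.10 (adjusted p = 0.00354). Of 12 tested replication-independent variants 3 rose and 1 fell with insulin, and none was called for Viperin by edgeR. H3-3B, which codes for H3.3, rose by 0.10 (adjusted p = 0.00373). H2AZ2 and H2AX had the smallest p for Viperin, with values of 0.07 ± 0.03 and -0.07 ± 0.03.

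RNA without poly(A) tails and markers of other cells moved as follows. Small RNAs without poly(A) tails summed to 11.1 to 30.4 CPM in Control against 41.1 to 47.8 in Insulin, and to 8.18 to 45.4 in Viperin against 12.4 to 14.9 in Viperin + Insulin. With the genes whose symbols begin with RN7S left out, the sums were 5.41 to 6.37 CPM in Control against 5.94 to 6.35 in Insulin, and 5.17 to 5.29 in Viperin against 5.56 to 6.75 in Viperin + Insulin. The gap between Control and Insulin was thus in the RN7S genes left out, which were not separated further. Of 20 tested genes of that list, 1 was called higher with insulin on average, RNU5D-1 (adjusted p = 0.0313, edgeR). It had no count in the 6 libraries without insulin and 1 to 3 counts in each of the 6 with it, so its fold change could not be estimated. For insulin VTRNA1-3 had 0.58 ± 0.28, and 2 fell with Viperin, VTRNA1-3 by 0.80 and RNU6ATAC by 1.07. The part of this list in the results was not tested. The epithelial label was met by KRT8 at 1290 CPM and KRT18 at 824 CPM on average, whereas CDH1 and EPCAM, defining epithelial adhesion molecules, were at 1.2 and 0.434 CPM. The 6 epithelial markers summed to 2568 to 2635 CPM in Control against 2666 to 2840 in Insulin, and to 2431 to 2520 in Viperin against 2563 to 2674 in Viperin + Insulin. KRT8, the only one of the 6 called, rose by 0.11 with insulin and fell by 0.08 with Viperin on average by edgeR. The 6 stromal and fibroblast markers, which 12Z cells also express, summed to 3849 to 4006 CPM in Control against 3914 to 3993 in Insulin, and to 4068 to 4248 in Viperin against 4099 to 4321 in Viperin + Insulin. Of these 6, 1 fell with insulin on average, and 4 rose and 1 fell with Viperin. PDGFRB fell by 0.26 with insulin and rose by 0.20 with Viperin, where COL1A2 rose by 0.38. The 4 leukocyte markers summed to 0.748 to 1.98 CPM and the 3 endothelial markers to 5.22 to 7.43 CPM. None of the 3 tested genes of either list was called by edgeR for insulin or Viperin on average. At an unadjusted p under 0.05 there were CDH5 for insulin, at -0.33 ± 0.13 (adjusted p = 0.0788), and PTPRC for Viperin, at 0.49 ± 0.20 (adjusted p = 0.104).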

How the data were processed

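The deposited tables, 1 per library, hold unnormalized counts that the authors made with STAR on hg38 after trimming of 50-base paired reads with cutadapt and Trim Galore. Nothing was filtered or pooled. The methods name GENCODE vM16 for counting, which is numbered as a mouse release, whereas the deposited gene IDs are human. Reverse-strand counts were analysed, and the lines for unmapped, multimapped and unassigned reads stayed out of library sizes. Symbols for 60357 of 60617 IDs came from GENCODE 44. After a filter that kept genes averaging 1 or more counts, libraries were scaled by TMM and 4 group means were fitted with edgeR 4.0.16 (R 4.3.3) by its robust quasi-likelihood test, with a prior count of 2. Adjustment was by Benjamini-Hochberg over all 23041 genes, with calls at 0.05. The comparisons were insulin within each plasmid and on average, Viperin within each insulin state and on average, and the difference of the insulin responses. Values after ± are standard errors for fold changes and SD for levels. The standard errors were derived from the test statistic and the fold change without the prior count. The fold changes printed include the prior count, so at low counts the 2 do not match exactly. CPM were on TMM-scaled library sizes. The fit was tested on simulated data. P-values measure the spread between 3 libraries a group.

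The members and lists were chosen with earlier results of these data known. Members named are those called in any comparison, the 3 with the smallest p in each, the 12 highest per kb, the highest of each family and the replication-independent H1 genes, and of each list the 2 genes with the smallest p for insulin and for Viperin on average. One gene is not reported here, though the counts of members include it. H2BC4, H2BC21, H2AC12, H2AC20, H4C9, LSM10, SLBP, NPAT, PCNA, MCM5, MCM6, CCNE1, E2F1 and EPCAM were named in addition, after their values were seen. Alternatives were RLE size factors, no filter, filterByExpr, unstranded counts, DESeq2 1.42.0, limma-voom (limma 3.58.1), a replicate block, only the groups compared, a threshold of 0.001, each library left out in turn, and Control 1 and Viperin 3 left out together. Libraries of a group differed beyond sampling noise, so none was counted as a duplicate.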

Additional observations from a re-analysis of the deposited data

Results flagged for a closer look

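The opposite-strand counts of the members, which the reverse-strand counts analysed leave out, lay above Control in Viperin + Insulin. They were 8.85% of the counts on both strands on average in Viperin + Insulin (8.75% to 8.92%), against 7.67% to 8.66% in Control, 8.59% to 8.96% in Insulin and 7.85% to 8.28% in Viperin. The locus of H4C9, inside the RefSeq span of H2BC12 on the other strand and described above, gave 87.4% of these counts. With H4C9 left out the opposite-strand share was 0.939% to 1.32% in Viperin + Insulin and 1.20% to 1.41% in Control.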

How the results depend on the processing

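At a threshold of 0.001, 1 member was called for Insulin against Control, 1 for Viperin + Insulin against Viperin, 0 for Viperin + Insulin against Insulin and 0 for Viperin on average by edgeR. These stood against 1.18%, 1.11%, 0.473% and 2.05% of all genes, in the same order. DESeq2 called 3 for Insulin against Control and 1 for Viperin + Insulin against Insulin, and unstranded counts gave 1 for the latter. Of all genes tested, DESeq2 called 1046 and 579 in these comparisons, and unstranded counts gave 697 for the latter. For Viperin against Control, RLE size factors, no filter on low counts and limma-voom gave 1 each, and no filter gave 2 for Viperin on average. Of all genes, these settings called 543, 701 and 463 for Viperin against Control, and no filter called 1914 for Viperin on average. With Control 1 and Viperin 3 left out together the counts were 8 for Insulin against Control, 1 for Viperin against Control and 2 for Viperin on average. Of all genes tested, 1492, 929 and 2299 were called there, in the same order. With each library left out in turn, 3 to 7 members were called for Insulin against Control (3 without Insulin 2), 3 to 5 for Viperin + Insulin against Viperin (3 without Viperin 3), 5 to 7 for insulin on average, 0 to 1 for Viperin against Control, 0 to 2 for Viperin + Insulin against Insulin and 0 to 2 for Viperin on average. Over all genes tested, the calls for Insulin against Control were 627 to 1360 (627 without Insulin 2, 1265 with all 12 libraries). They were 615 to 1393 for Viperin + Insulin against Viperin and 2132 to 2815 for insulin on average. For Viperin against Control they were 308 to 1102, for Viperin + Insulin against Insulin 278 to 1039 and for Viperin on average 1289 to 2420. The count of members for Viperin against Control was 1 without Control 1, Control 3 or Viperin + Insulin 3. For Viperin + Insulin against Insulin it was 0 without Insulin 2 or Viperin + Insulin 1, and 1 without any other library of the pair. For Viperin on average it was 2 without Control 1 or Insulin 1 and 0 without Control 2 or Viperin + Insulin 3. For insulin on average DESeq2 called 5 higher and 1 lower, and limma-voom 6 higher and 1 lower. Of all genes tested, they called 2355 and 2563 in either direction. The cause of these shifts was not tested. Of the fold changes recomputed in each alternative, those of members called or with the smallest p in a comparison, none changed sign. These members were picked from the same libraries, so a kept sign is a weak check. The other fold changes given, such as the differences of response near 0, were not recomputed. No pairing of the libraries by replicate number was seen. Deviations of same-numbered libraries correlated between -0.069 and 0.058 over 18 pairs, against -0.078 to 0.060 over 36 pairs with other numbers. These values include genes with few counts, whose counting noise pulls them towards 0, so a weak pairing could be missed. With a replicate block 5 members were called for Insulin against Control, 5 for Viperin + Insulin against Viperin, 7 for insulin on average, 0 for Viperin against Control, 2 for Viperin + Insulin against Insulin and 1 for Viperin on average by edgeR. Of all genes tested, 1224, 1012, 2635, 488, 709 and 1747 were called there, in the same order. The difference of the insulin responses gave 0 members by edgeR in every alternative run, and DESeq2 and limma-voom also gave 0. Of all genes tested, 0 to 37 were called there, the most with no filter on low counts. Of the 57 tested members 43 had a mean under 100 counts, and whether depth or a low level of their mRNA set this was not tested.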
